A study of Homo sapiens with 30 samples.

Results

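The genes described here are the G1 cyclins and their kinases: the D-type cyclins CCND1, CCND2 and CCND3, the E-type cyclins CCNE1 and CCNE2, and the cyclin-dependent kinases CDK2, CDK4 and CDK6. They were found by gene symbol, and all 8 had a row in each of the 4 count tables, out of 57773 genes per table. RNA-seq libraries came from 3 human prostate cancer cell lines: VCaP, LNCaP and C4-2-tet-shRB, a C4-2 line in which doxycycline induces a short hairpin RNA against RB1. VCaP cells were transfected for 2 days with 20 nM of a non-targeting control siRNA or of an siRNA against RB1, with 3 libraries in each group. In the GSK2879552 experiment, C4-2-tet-shRB cells had no doxycycline or 0.05 µg/ml for 3 days, each without or with 10 µM GSK2879552 for 24 hours, with 2 libraries in each of the 4 groups. GSK2879552 is an inhibitor of the histone demethylase LSD1, the product of KDM1A. In the DHT experiment, C4-2-tet-shRB cells had 0, 3 or 30 days of doxycycline at 0.05 µg/ml and then vehicle or 10 nM of the androgen dihydrotestosterone (DHT) for 24 hours. LNCaP cells had vehicle or 1 µM GSK2879552 for 2 days. In the DHT and LNCaP tables each group was 1 library read in 2 lanes. Serum in the C4-2 and LNCaP media was wholly or mainly charcoal-stripped, which removes steroid hormones, and for VCaP the labels name regular serum while the library names carry the mark CSS. All 22 libraries fell into 14 groups. The groups with doxycycline were compared with the same hairpin line without it, no group had doxycycline with a control hairpin, and the labels do not say whether the line is 1 clone. Effects of RB1 depletion, of doxycycline and of the hairpin cannot be told apart in C4-2 cells.

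D-type cyclins are made when growth signals reach a cell, and they bind and activate CDK4 and CDK6. These kinases phosphorylate the retinoblastoma protein, which then releases E2F transcription factors. E-type cyclins are classical E2F target genes and activate CDK2, which completes the phosphorylation and starts DNA replication. In prostate cells androgens are known to act on this pathway, and the pocket protein RB1 lies between the D-type and E-type steps.

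The counted reads per library ranged from 4311455 to 22326960, with the lowest totals in VCaP. RB1 was at 56.5 to 63.9 CPM (counts relative to library size, with sizes scaled by TMM within a table) in the VCaP control libraries and at 5.35 to 7.41 CPM with RB1 siRNA. In the GSK2879552 experiment it was at 22.1 to 32.7 CPM without doxycycline and at 4.64 to 6.74 CPM with it. In the DHT experiment it was at 48.1 and 51.1 CPM without doxycycline, and at 6.25 to 10.0 CPM with it. Of the luminal prostate markers, FOXA1, HOXB13, KRT8, KRT18, EPCAM and TMPRSS2 were at 49.5 CPM or more in all 22 libraries, as was KLK3, while KLK2 was at 642 CPM or more in VCaP and C4-2 and at 38.1 and 19.3 CPM in LNCaP. Of the basal markers, KRT5 had no count in any library and TP63 was at 0.465 CPM or less. KRT14 was at 5.34 to 5.97 CPM with control siRNA and 7.18 to 7.73 CPM with RB1 siRNA in VCaP, and at 0.437 CPM or less elsewhere, and its part in the VCaP results was not tested. COL1A1 (3.66 to 50.8 CPM) and VWF (0.470 to 23.0 CPM) were also detected. Of the other fibroblast markers looked at, COL3A1 reached at most 4.17 CPM and DCN at most 0.229 CPM. The leukocyte markers PTPRC and CD3E reached at most 0.782 and 0.102 CPM. The p-values below measure the spread between the deposited libraries of a group, which may be technical. In the DHT experiment, with 1 library per group, they measure departures from an additive model instead. The edgeR fits also draw on the spread of other genes. VCaP replicates differed by little more than counting error, with a chi-square ratio of 1.13 to 1.39, against 1.61 to 7.88 in the GSK2879552 experiment. In that experiment the pair given the inhibitor alone differed most, with CCNE2 at 10.9 and 7.57 CPM and RB1 at 32.7 and 22.1 CPM. Where groups are said below to overlap or not, this only describes the libraries. The share of all genes without such overlap is not given, so it adds no support to a call.

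CCND1 was the most abundant of the 8 genes in all 22 libraries, in CPM and in CPM per kilobase of exon (CPM per kb). In the VCaP control libraries its level was 149 to 154 CPM per kb. It was followed by CDK4 at 40.4 to 41.4, CDK2 at 11.1 to 12.7 and CCND3 at 5.49 to 5.83 CPM per kb. CCNE2, at 2.705 to 4.228 CPM per kb, stood above CCNE1, at 1.17 to 1.56 CPM per kb, with no overlap of the 3 libraries. CDK6 had 0.0187 to 0.0758 CPM per kb, and CCND2 had 0 counts in all 6 VCaP libraries, a count that allows up to 3 in each. CCND2 stayed near this limit in C4-2 cells too, with 12 counts over the 8 libraries of the GSK2879552 experiment and 2 over the 6 of the DHT experiment. In C4-2 cells with DMSO the first 4 genes had the same order, with CCND1 at 127 and 120, CDK4 at 32.0 and 34.5, CDK2 at 13.4 and 15.3, and CCND3 at 10.7 and 10.9 CPM per kb. There the E-type cyclins had the opposite order, with CCNE1 at 5.30 and 5.31 CPM per kb and CCNE2 at 1.74 and 1.78. CCNE1 thus held 24.4% to 34.6% of the E-type cyclin level per kilobase in VCaP, 65.9% to 77.9% in the C4-2 cells of the GSK2879552 experiment, 46.7% to 59.0% in those of the DHT experiment, and 86.3% and 83.3% in LNCaP. CCNE2 shares 1629 of its 4397 exonic bases with INTS8 on the opposite strand, and the strand setting of the counting was not given. Its level, this order and these shares may depend on that setting, which was not tested.

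**Figure D1:**
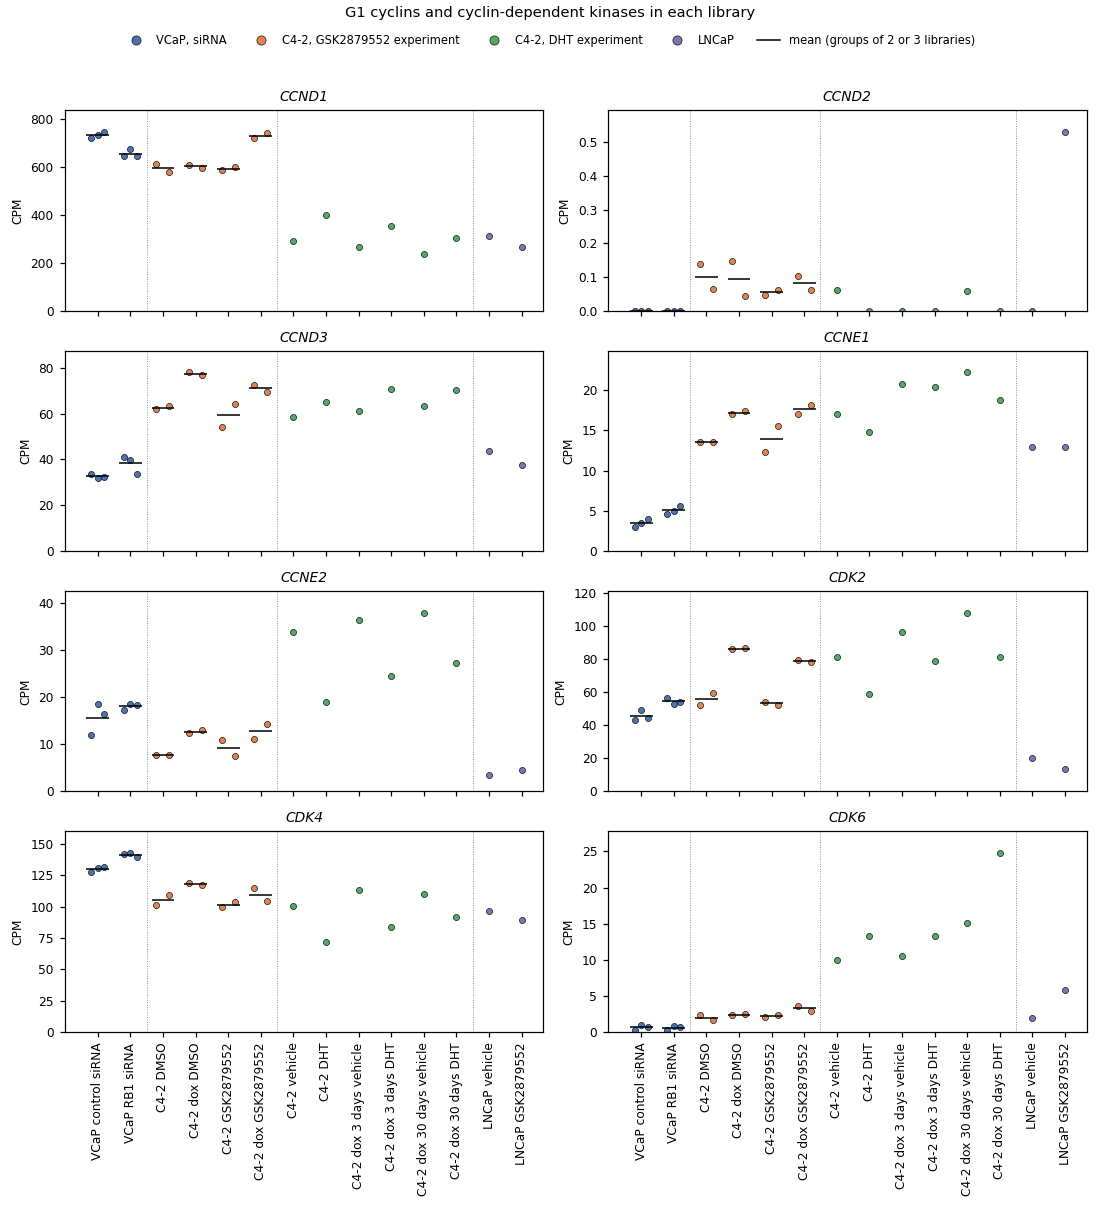
Level of each gene in CPM (vertical axis, from 0, its own range for each gene) in each of the 22 libraries, ordered by group along the horizontal axis; points are libraries, bars are means of groups with 2 or 3 libraries, and dotted lines part the 4 tables. CCND1 lies at 237 to 746 CPM, CCND2 under 0.6 CPM in every library, and CDK6 is highest, at 24.8 CPM, in C4-2 cells with 30 days of doxycycline and DHT.

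The D-type level was nearly all CCND1, which held 81.9% to 96.5% of the summed level of the 3 D-type cyclins per kilobase over the 22 libraries. CDK4 likewise held 93.5% to 99.95% of the summed CDK4 and CDK6 level. CDK6 and CCNE2 differed between the C4-2 experiments: in cells with neither doxycycline nor drug, CDK6 was at 2.34 and 1.59 CPM in the GSK2879552 experiment and at 9.95 CPM in the DHT experiment, and CCNE2 at 7.66 and 7.82 against 33.7 CPM. CCND1 went the other way, with 614 and 577 CPM against 291 CPM. The experiments used an mRNA kit and a total RNA kit, and media with different serum, and their tables were scaled separately, so these levels were set side by side with no test. LNCaP, from which C4-2 was derived, had CDK2 at 20.2 CPM with vehicle, CCND1 at 313 and CDK6 at 1.87 CPM.

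The stretch before the transcription start is printed for 1 kinase and 1 E-type cyclin, CDK4, which fell with DHT, and CCNE1, which was not called in any comparison of the edgeR fits on all libraries. The difference between these 2 genes was not tested. It is the 250 bases before the RefSeq start in GRCh38.p14, at chr12:57752311-57752560 on the minus strand for CDK4 and at chr19:29811741-29811990 on the plus strand for CCNE1. Capitals mark the E-box CACGTG and the GC box GGGCGG or its reverse complement CCGCCC.
CDK4: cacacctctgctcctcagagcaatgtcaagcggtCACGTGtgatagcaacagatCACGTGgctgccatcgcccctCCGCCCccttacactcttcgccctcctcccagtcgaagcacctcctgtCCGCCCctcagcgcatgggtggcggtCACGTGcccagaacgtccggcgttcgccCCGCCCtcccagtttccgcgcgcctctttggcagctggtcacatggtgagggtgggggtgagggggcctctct
CCNE1: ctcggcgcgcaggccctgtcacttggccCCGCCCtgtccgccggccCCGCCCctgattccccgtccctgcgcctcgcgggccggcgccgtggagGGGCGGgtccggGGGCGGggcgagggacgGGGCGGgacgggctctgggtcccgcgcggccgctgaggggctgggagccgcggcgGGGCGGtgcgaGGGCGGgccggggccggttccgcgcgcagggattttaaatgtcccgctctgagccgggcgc
The CDK4 stretch held 3 E-boxes and 3 GC boxes, and the CCNE1 stretch held no E-box and 7 GC boxes. Of all 35116 promoters in the table, 6.34% held an E-box and 42.6% a GC box in the same window. Searched on both strands, the E2F-type motif TTTNNCGC, found in 5.92% of all promoters, had no match in either stretch. The 3 motifs do not overlap each other in these stretches, and a match or its lack says nothing of binding. Of the 8 members, 4 were matched in the table (CCND3, CCNE1, CDK4 and CDK6, with 7 starts in all).

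RB1 siRNA in VCaP cells lowered CCND1, the cyclin that starts G1 kinase activity, and raised CDK2, the kinase of the E-type cyclins. CCND1 was at 718, 731 and 746 CPM with control siRNA and at 645, 674 and 645 CPM with RB1 siRNA. In whole-culture RNA, fewer cells of a kind and less RNA per cell cannot be told apart. All 3 depleted libraries lay under all 3 control libraries, and the log2 fold change was -0.16 ± 0.03 (SE, n = 3 and 3; edgeR quasi-likelihood test, adjusted p = 0.000114). CDK2 was at 43.2, 49.5 and 44.4 CPM against 56.6, 53.0 and 54.1 CPM, again with no overlap, and its log2 fold change was 0.26 ± 0.08 (adjusted p = 0.0303). These 2 calls, 1 higher and 1 lower, came from the 6 members that passed the filter on low counts, CCND2 and CDK6 having too few. Among all 14066 genes tested, 2.96% were called higher and 2.65% lower. The other 4 members did not pass: CCND3 had a log2 fold change of 0.23 ± 0.09 (adjusted p = 0.137), CCNE1 of 0.54 ± 0.25 (0.236), CCNE2 of 0.21 ± 0.13 (0.434) and CDK4 of 0.12 ± 0.05 (0.135). For CCNE1 the levels were 2.97, 3.49 and 3.98 CPM against 4.64, 5.01 and 5.64 CPM. These groups did not overlap, which describes these libraries only, and the gene was not called. The CDK2 call was lost with DESeq2 (log2 fold change 0.26, adjusted p = 0.267) and without control replicate 1 (0.22, 0.190), control replicate 3 (0.24, 0.146), RB1 siRNA replicate 1 (0.23, 0.109) or RB1 siRNA replicate 2 (0.28, 0.0528), while CCND3 was called without RB1 siRNA replicate 3 (0.31, 0.0321).

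In VCaP cells, of the 13 pocket protein and E2F family genes, 3 rose, led by E2F1 with a log2 fold change of 0.41 ± 0.06 (the leading gene of a list is the called one with the smallest p), and 1 fell, which was RB1 itself. Of the 7 CDK inhibitors 1 rose, CDKN1A, which encodes p21, at 0.25 ± 0.07. None of the 19 CDK activators and cyclin turnover genes changed in the edgeR test. Of 16 measured later and other cyclins and kinases, 2 fell, led by the mitotic cyclin CCNB1 at -0.27 ± 0.06. Of 15 proliferation genes 9 rose, led by the replication helicase subunit MCM2 at 0.34 ± 0.04, and MKI67 fell (-0.21 ± 0.04). The median log2 fold change was 0.24 for the proliferation genes and -0.0013 for all genes tested. Of all genes tested, 2.96% were called higher and 2.65% lower, so a count of 1 or 2 genes says little of a list.

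In C4-2 cells of the GSK2879552 experiment, 3 days of doxycycline without the inhibitor raised CDK2, CCNE2 and CCND3. CDK2 was at 52.1 and 59.5 CPM with DMSO and at 86.1 and 86.4 CPM with doxycycline. Its log2 fold change of 0.63 ± 0.08 (n = 2 and 2; edgeR, adjusted p = 0.000138) was the most certain change among the members, and it remained called under each alternative tried. CCNE2, an E-type cyclin, was at 7.66 and 7.82 CPM against 12.3 and 13.0 CPM, a log2 fold change of 0.71 ± 0.17 (adjusted p = 0.0136). CCND3, the second D-type cyclin in level, was at 62.0 and 63.2 CPM against 78.1 and 76.7 CPM, a log2 fold change of 0.31 ± 0.08 (adjusted p = 0.0325). In these 3 genes both doxycycline libraries lay above both DMSO libraries, which describes these libraries only. Of the 7 members tested 3 were thus called higher and 0 lower, where 4.25% of all 18423 genes were called higher and 3.59% lower. CCND1 had a log2 fold change of 0.02 ± 0.06 (adjusted p = 0.907), with 614 and 577 CPM against 608 and 596 CPM, overlapping groups. CCNE1 had 0.35 ± 0.12 (adjusted p = 0.0944), CDK4 0.16 ± 0.07 (0.187) and CDK6 0.30 ± 0.25 (0.541).

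The CCNE2 and CCND3 calls rested on the full set of libraries. CCNE2 was not called without any 1 of the 4 libraries compared, with log2 fold changes of 0.67 to 0.75 and adjusted p of 0.0623 to 0.156. CCND3 was not called without either library with DMSO alone, with doxycycline alone, or with doxycycline and GSK2879552 (adjusted p 0.0536 to 0.248). CCNE1 and CDK4 were called when only the 2 groups compared were fitted (adjusted p = 0.0110 and 0.0231). CCNE1 was also called without GSK2879552 replicate 1 or 2 (0.0141 and 0.0156), and CDK4 without GSK2879552 replicate 1 (0.0443). CCNE2 shares 1629 of its 4397 exonic bases with INTS8 on the opposite strand, and the strand setting of the counting was not given in the sources used here, so reads of the 2 genes may be mixed. INTS8 had a log2 fold change of 0.27 ± 0.12 (adjusted p = 0.193).

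**Figure D2:**
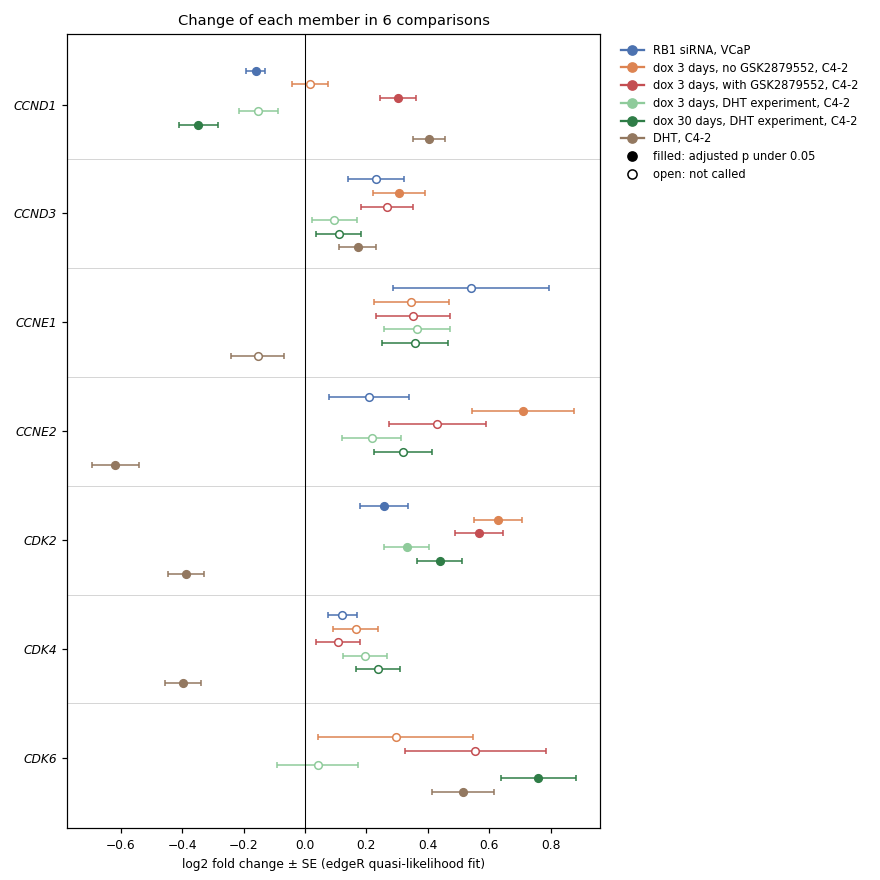
Log2 fold change (horizontal axis) with its SE for the 7 members that could be tested (vertical axis), in 6 comparisons by colour; filled points had an adjusted p under 0.05. CDK2 is called above 0 in all 5 comparisons of RB1 siRNA or doxycycline and below 0 with DHT. In C4-2 cells effects of RB1 depletion, doxycycline and the hairpin cannot be told apart. The comparisons at 3 and 30 days in the DHT experiment share libraries. The CDK2 calls in VCaP and at 3 days in the DHT experiment were lost with DESeq2 and without some single libraries. CCND1 runs from -0.35 with 30 days of doxycycline to 0.41 with DHT.

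With GSK2879552 present, doxycycline raised CDK2 and also CCND1. CDK2 was at 54.2 and 52.4 CPM with the inhibitor alone and at 79.7 and 78.4 CPM with both, a log2 fold change of 0.57 ± 0.08 (adjusted p = 0.000296). CCND1 was at 585 and 599 CPM against 721 and 740 CPM, a log2 fold change of 0.30 ± 0.06 (adjusted p = 0.00395). Both genes had no overlap between the groups. These were 2 calls among 7 members tested, where 4.52% of all genes were called higher and 3.20% lower. CCND3 had 0.27 ± 0.08 (adjusted p = 0.0614), CCNE1 0.35 ± 0.12 (0.0855), CCNE2 0.43 ± 0.16 (0.111), CDK6 0.56 ± 0.23 (0.157) and CDK4 0.11 ± 0.07 (0.413). The CCND1 call was lost without doxycycline and GSK2879552 replicate 2 (0.27, 0.0821) and with only the 2 groups in the fit (0.29, 0.0519). Other calls turned on the pair with the inhibitor alone: without its replicate 2, CCND3 (0.39, 0.000253) and CCNE1 (0.52, 0.00263) were called, and without its replicate 1, CCNE2 was (0.73, 0.000713).

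GSK2879552 itself gave 1 call among the members, CCND1 in cells with doxycycline. Without doxycycline none of the 7 members tested was called by edgeR and none had an unadjusted p under 0.05, where 0.619% of all genes were called higher and 0.0597% lower. The log2 fold changes ran from -0.08 ± 0.09 for CCND3 to 0.28 ± 0.17 for CCNE2. CCND1 had -0.01 ± 0.06. Without replicate 2 of the inhibitor alone, CCNE2 was called (0.49, adjusted p = 0.0325), and without its replicate 1 CCNE2 had -0.02. With doxycycline CCND1 was at 608 and 596 CPM without the inhibitor and at 721 and 740 CPM with it. The groups did not overlap, and its log2 fold change was 0.28 ± 0.06 (adjusted p = 0.0184), where 1.24% of all genes were called higher and 0.0923% lower. The remaining 6 members were not called, with log2 fold changes from -0.13 ± 0.08 for CDK2 to 0.45 ± 0.22 for CDK6. The CCND1 call was lost without either doxycycline replicate (adjusted p = 0.314 and 0.442) or either replicate with doxycycline and GSK2879552 (0.149 and 0.291). The difference between the 2 effects of the inhibitor, or equally of doxycycline, was 0.29 ± 0.08 on the log2 scale for CCND1, with an unadjusted p of 0.00254 and an adjusted p of 0.857, so it was not called, and 0.0163% of all genes were called lower in that test and 0 higher. The 4 comparisons of this experiment share groups of libraries.

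Among the neighbouring genes of the pathway, doxycycline without the inhibitor raised 9 of 15 proliferation genes and lowered 0, led by MCM3 with a log2 fold change of 0.47 ± 0.06. Of the 7 CDK inhibitors 2 rose, led by CDKN1A at 0.75 ± 0.07. Of the 13 pocket protein and E2F genes 2 rose, led by the repressor E2F7 at 0.86 ± 0.12, and 3 fell: RB1 itself, the pocket protein RBL2 and TFDP2. Of the activators and turnover genes 1 of 19 rose, the deubiquitinase USP28 at 0.30 ± 0.09, and of 17 measured later and other cyclins and kinases none was called by edgeR. With the inhibitor present, 12 of 15 proliferation genes, 3 of 17 later cyclins and kinases (led by CCNA2 at 0.48 ± 0.09) and 1 of 7 CDK inhibitors, CDKN1A, rose. Of the 13 pocket protein and E2F genes 4 rose, led by E2F7 at 0.90 ± 0.12, and 2 fell, RB1 and RBL2, and of the 19 activators and turnover genes 2 rose, led by USP28 at 0.32 ± 0.09. The median log2 fold change of the proliferation genes was 0.36 without and 0.38 with the inhibitor, against -0.0017 and 0.0081 for all genes. GSK2879552 called 0 members of these lists higher and 1 lower without doxycycline, MKI67 at -0.31 ± 0.06, and none with it. Of all genes, doxycycline called 4.25% higher and 3.59% lower without the inhibitor, and 4.52% and 3.20% with it. For the inhibitor the shares were 0.619% and 0.0597% without doxycycline, and 1.24% and 0.0923% with it. A count of 1 or 2 genes therefore says little of a list.

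In the DHT experiment doxycycline was tested over vehicle and DHT together, in an additive model that leaves 2 residual degrees of freedom. The model takes each doxycycline effect as equal with vehicle and with DHT, and the DHT effect as equal at each doxycycline level. After 3 days only CDK2 was called among the 7 members tested. Its vehicle libraries read 81.5 CPM at 0 days and 96.5 CPM at 3 days, and its DHT libraries 58.6 and 78.9 CPM. The level was higher at 3 days within vehicle and within DHT, the log2 fold change was 0.33 ± 0.07 (adjusted p = 0.0372), and 0.272% of all 17300 genes were called higher and 0.197% lower. CCNE1 had 0.36 ± 0.11 (adjusted p = 0.149), CCNE2 0.22 ± 0.10 (0.442), CDK4 0.20 ± 0.07 (0.308), CCND1 -0.15 ± 0.06 (0.405), CCND3 0.10 ± 0.07 (0.743) and CDK6 0.04 ± 0.13 (0.955). The CDK2 call was lost with DESeq2 (0.33, 0.170), without the library with DHT alone (0.27, 0.0957) and without that with DHT and 3 days of doxycycline (0.26, with an adjusted p of 1), while CCNE2 (0.41, 0.0291) and CDK4 (0.27, 0.0194) were called without the vehicle library.

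After 30 days of doxycycline CDK6 and CDK2 were higher and CCND1 was lower. CDK6 is the second kinase that D-type cyclins bind. Its vehicle libraries read 9.95, 10.5 and 15.0 CPM at 0, 3 and 30 days, and its DHT libraries 13.3, 13.3 and 24.8 CPM. Within vehicle and within DHT the level at 30 days was the highest, and the log2 fold change over 0 days was 0.76 ± 0.12 (adjusted p = 0.000317). CDK2 reached 108 and 81.5 CPM, a log2 fold change of 0.44 ± 0.07 (adjusted p = 0.00048). CCND1 read 291, 267 and 237 CPM over 0, 3 and 30 days in vehicle libraries and 400, 353 and 304 CPM in DHT libraries. Its level was lower at each longer time within vehicle and within DHT, with a log2 fold change of -0.35 ± 0.06 at 30 days (adjusted p = 0.00161). Between single libraries, 30 days of doxycycline gave a CDK6 ratio of 1.51 (95% exact counting interval 1.23 to 1.85) with vehicle and 1.87 (1.56 to 2.25) with DHT. With TMM on summed lanes, no member reached 2-fold in a single-library doxycycline ratio. Of all genes, 0.0483% at 3 days with vehicle, 0.0503% at 3 days with DHT, 0.0726% at 30 days with vehicle and 0.284% at 30 days with DHT were at least 2-fold higher, and 0.00805%, 0.0251%, 0.0323% and 0.0835% lower. The 2 calls higher and 1 lower among 7 members stand beside 2.51% and 1.52% of all genes. CCNE1 at 0.36 ± 0.11 (adjusted p = 0.0555), CCNE2 at 0.32 ± 0.10 (0.0555) and CDK4 at 0.24 ± 0.07 (0.0619) did not pass, nor did CCND3 at 0.11 ± 0.07 (0.501).

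Between 30 and 3 days CDK6 was the only member called, with a log2 fold change of 0.72 ± 0.12 (adjusted p = 0.00196), where 0.254% of all genes were called higher and 0.0694% lower. CCND1 had -0.19 ± 0.06 (adjusted p = 0.322), and the log2 fold changes of the other 5 lay between -0.0037 and 0.11. Both CDK6 calls leaned on the library with 30 days of doxycycline and DHT: without it the log2 fold change was 0.57 over 0 days (adjusted p = 0.0565) and 0.54 over 3 days (0.207). The second was also lost without the library with 3 days and DHT (0.59, 0.186). The CCND1 call at 30 days was lost without the library with 30 days and DHT (-0.31, 0.108). Without the vehicle library, CCNE1 (0.40, 0.048), CCNE2 (0.50, 0.00156) and CDK4 (0.31, 0.00267) were called at 30 days, and CCND1 was called between 30 and 3 days (-0.20, 0.00758), as it was without the library with DHT alone (-0.20, 0.00752). CCNE2 was also called at 30 days without the library with 3 days of doxycycline and vehicle (0.32, 0.0372) or DHT (0.32, 0.0399) and with no filter on low counts (0.33, 0.0435).

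In the same fit 7 of 15 proliferation genes rose after 3 days, led by MCM3 at 0.43 ± 0.07, and 8 of 15 after 30 days, led by the licensing factor CDT1 at 0.56 ± 0.08. Of the 13 pocket protein and E2F genes 2 rose after 3 days, led by E2F1 at 0.43 ± 0.08, and 5 after 30 days, led by RBL1 at 0.62 ± 0.09, and the 1 that fell was RB1 at both times. Of the 7 CDK inhibitors, CDKN1C, which encodes p57, fell at both times (-0.61 ± 0.14 and -0.72 ± 0.14), and CDKN1B, which encodes p27, rose after 30 days (0.27 ± 0.07). None of the 16 measured later cyclins and kinases was called by edgeR at either time, and of the 19 activators and turnover genes 1 was, the CDK phosphatase CDC25A after 30 days (0.34 ± 0.08). The proliferation genes had a median log2 fold change of 0.35 at both times, against -0.0016 for all genes. Of all genes, 0.272% were called higher and 0.197% lower after 3 days, and 2.51% and 1.52% after 30 days. A count of 1 gene says little of a list.

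RB1 siRNA in VCaP and doxycycline in C4-2 moved CDK2 and CCND1 differently, and between the C4-2 experiments no member differed past the test. Of the 7 members, none was called in the test of 3 days of doxycycline in the GSK2879552 experiment minus the DHT experiment, where 2.15% of all genes were called higher and 1.18% lower, and 4 members had an unadjusted p under 0.05. The differences were 0.51 ± 0.16 for CCNE2 (adjusted p = 0.0575), 0.31 ± 0.10 for CDK2 (0.0739), 0.22 ± 0.10 for CCND3 (0.233) and 0.18 ± 0.08 for CCND1 (0.263). With no filter on low counts CCNE2 (0.56, 0.0385) and CDK2 (0.36, 0.0298) were called. CCNE2 was also called without the library with DHT alone (0.63, 0.0116), and CDK2 without that library (0.37, 0.0246) or C4-2 DMSO replicate 2 (0.42, 0.0199). Another edgeR test took the response to RB1 siRNA in VCaP minus that to doxycycline in C4-2 without the inhibitor. There CDK2 (-0.38 ± 0.10, adjusted p = 0.00508) and CCND1 (-0.18 ± 0.05, adjusted p = 0.00991) were called, where 5.20% of all genes were called higher and 5.73% lower. CDK2 thus rose less in VCaP, and CCND1, which fell in VCaP, had 0.02 ± 0.06 in C4-2. This fit pooled the spread of both lines, with a common coefficient of variation between libraries of 3.04%. It was 2.27% in the VCaP fit and 5.79% in the fit of the whole GSK2879552 experiment. The SE of the CCND1 difference is under that of its C4-2 value, so the p-values of this test may be too small. CCNE2 had -0.51 ± 0.19 (adjusted p = 0.0573). The CDK2 difference was not called without C4-2 DMSO replicate 1 (-0.29, 0.0588) or VCaP control replicate 2 (-0.31, 0.0579), nor the CCND1 difference without C4-2 doxycycline replicate 1 (-0.17, 0.0602), and CCNE2 was called without VCaP control replicate 1 (-0.68, 0.0121) and with the replicate number as a block (-0.50, 0.0491). The lines also differed in how RB1 was lowered, with log2 fold changes of RB1 of -3.22 ± 0.12 in VCaP and -2.18 ± 0.18 in C4-2, and in medium, and the part of either in these differences cannot be told apart.

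DHT split the members: the D-type cyclins CCND1 and CCND3 and the kinase CDK6 rose, and CCNE2, CDK2 and CDK4 fell. CCND1 was at 291, 267 and 237 CPM with vehicle and at 400, 353 and 304 CPM with DHT at 0, 3 and 30 days of doxycycline. Its log2 fold change over the 3 levels was 0.41 ± 0.05 (adjusted p = 2.68e-07). CDK6, at 9.95, 10.5 and 15.0 CPM against 13.3, 13.3 and 24.8 CPM, had 0.52 ± 0.10 (adjusted p = 0.000112). In both genes DHT was higher at each doxycycline level. The DHT and vehicle libraries did not overlap for CCND1, and for CDK6 they overlapped over the levels. CCND3 had 0.17 ± 0.06 (adjusted p = 0.0193), with 58.6, 61.3 and 63.1 CPM against 64.9, 71.0 and 70.2 CPM, where all 3 DHT libraries lay above all 3 vehicle libraries.

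CCNE2 was at 33.7, 36.3 and 37.9 CPM with vehicle and at 18.9, 24.5 and 27.2 CPM with DHT, a log2 fold change of -0.62 ± 0.08 (adjusted p = 1.79e-07). CDK4 was at 101, 113 and 110 CPM against 71.5, 83.7 and 91.5 CPM, with -0.40 ± 0.06 (adjusted p = 2.65e-06). These 2 genes had no overlap between vehicle and DHT libraries. CDK2 was at 81.5, 96.5 and 108 CPM against 58.6, 78.9 and 81.5 CPM, with -0.39 ± 0.06 (adjusted p = 3.59e-06), lower with DHT at each doxycycline level. CCNE1 did not pass, with -0.15 ± 0.09 (adjusted p = 0.149) and 17.1, 20.8 and 22.2 CPM against 14.9, 20.4 and 18.8 CPM. The 3 rises and 3 falls among 7 members stand beside 24.3% and 22.8% of all genes called, so a call alone says little in this comparison. Antisense partners were called too, with the sign of CCNE2 for INTS8 (-0.27 ± 0.06) and the opposite sign to CDK4 for TSPAN31 (0.72 ± 0.08), which shares 1369 of the 3168 exonic bases of CDK4, and their part in the counts of CCNE2 and CDK4 was not tested.

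Taken level by level, the DHT ratios of single libraries had counting intervals that overlap between doxycycline levels for CCND1, with ratios of 1.37 (95% exact interval 1.32 to 1.43) at 0 days, 1.32 (1.27 to 1.37) at 3 days and 1.28 (1.23 to 1.34) at 30 days. For CCNE2 the ratio was 0.560 (0.481 to 0.651), 0.675 (0.591 to 0.771) and 0.717 (0.631 to 0.814), for CDK4 it was 0.710 (0.655 to 0.769), 0.740 (0.688 to 0.796) and 0.830 (0.773 to 0.891), where the intervals at 0 and 30 days do not overlap, and for CDK6 it was 1.33 (1.07 to 1.66), 1.26 (1.03 to 1.56) and 1.65 (1.40 to 1.94). These intervals cover counting error only, and with 1 library per group the ratios have no replicate check. With TMM on summed lanes, none of the members reached a fold of 2 in any DHT ratio. Of the genes that had 100 counts or more over both libraries, 3.98%, 3.37% and 3.31% were at least 2-fold higher and 3.83%, 1.81% and 1.83% lower. Scaling by total counts in place of TMM moved all log2 DHT ratios by -0.21, -0.18 and -0.16 at 0, 3 and 30 days. This takes the log2 ratio of CCNE2 at 0 days, -0.84 with TMM, past 2-fold lower. With total counts the median of all genes was -0.19, -0.18 and -0.15. The CCND3 values were then -0.06, 0.03 and -0.01, above that median at each level, and those of CCND1 were 0.25, 0.22 and 0.19. The CCND3 call was also lost with DESeq2 (0.18, 0.133) and without the libraries with 3 days and vehicle (0.15, 0.159), 3 days and DHT (0.15, 0.153), 30 days and vehicle (0.18, 0.0768) or 30 days and DHT (0.19, 0.0658).

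**Figure D3:**
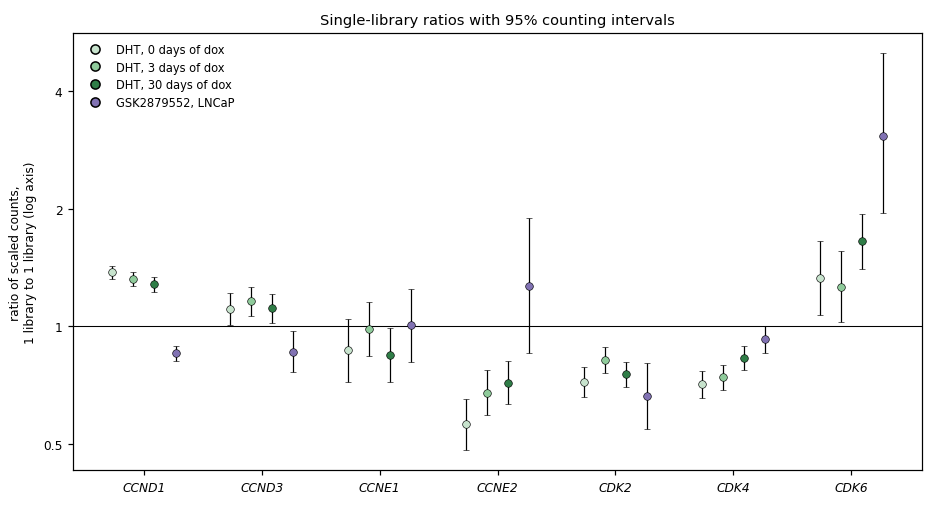
Ratio of TMM-scaled counts (vertical log axis) of 1 library to 1 library for 7 members (horizontal axis), for DHT against vehicle at 3 doxycycline levels and for GSK2879552 against vehicle in LNCaP; bars are 95% exact binomial counting intervals. CCNE2, CDK2 and CDK4 lie under 1 at each doxycycline level and CCND1 and CDK6 above 1, and CDK6 in LNCaP has the highest ratio, 3.08.

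Many genes around the members fell with DHT, where 24.3% of all genes were called higher and 22.8% lower. All 15 proliferation genes were called lower, led by CDT1 at -1.08 ± 0.07, with a median of -0.74 against -0.02 for all genes. Of the 13 pocket protein and E2F genes 7 fell, led by E2F2 at -0.96 ± 0.09, and 0 rose. Of the 19 activators and turnover genes 9 fell, led by SKP2, the ubiquitin ligase subunit that degrades p27, at -0.84 ± 0.06, and 4 rose, led by FBXO31 at 0.71 ± 0.07. Of 16 measured later cyclins and kinases 8 fell, led by CCNG2 at -1.004 ± 0.062, and 3 rose, led by CCNC at 0.50 ± 0.06. The 7 CDK inhibitors had 2 rises, CDKN1A at 0.66 ± 0.06 and CDKN2B, which encodes p15, at 2.21 ± 0.25, and 2 falls, CDKN2A at -0.50 ± 0.10 and CDKN2C at -0.21 ± 0.08. Both counts of the CDK inhibitors, and the rises among activators and later cyclins, lie near the shares of all genes. These counts therefore say little of the lists.

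In LNCaP cells after 2 days of GSK2879552, CDK6 was higher, and CDK2, CCND1 and CCND3 were lower, with counting intervals that did not hold 1. CDK6 had 26 counts with vehicle and 76 with the inhibitor, 1.87 and 5.77 CPM, a ratio of 3.08 with an exact 95% counting interval of 1.95 to 5.01. Its counts reached the minimum of 100 only through the library where it was high, so nothing is read from the share of all genes past 2-fold: 1.54% of genes with 100 counts or more over both libraries were at least 2-fold higher and 1.43% lower. CCND2 went from 0 counts to 7. COL1A1 went from 35.2 to 18.2 CPM, COL3A1 from 1.58 to 4.17 CPM and VWF from 23.0 to 5.77 CPM between the same libraries, and their part in the member ratios was not tested. DCN and CD3E were at 0 CPM in both libraries. CDK2 went from 20.2 to 13.4 CPM (281 and 177 counts), a ratio of 0.664 (0.547 to 0.804). CCND1 went from 313 to 266 CPM, a ratio of 0.852 (0.814 to 0.891), and CCND3 from 43.8 to 37.7 CPM, a ratio of 0.861 (0.763 to 0.971). The intervals of CCNE1 (1.01, 0.811 to 1.25), CCNE2 (1.27, 0.854 to 1.89) and CDK4 (0.926, 0.855 to 1.00) held 1. With 1 library per group there is no test, and the values compare these libraries, not the conditions. Of 15 proliferation genes 7 were at least 2-fold lower, with a list median of -0.74 on the log2 scale against -0.01 for all genes. The LNCaP dose and time differ from those of C4-2 (1 µM for 2 days against 10 µM for 24 hours). In C4-2 without doxycycline CDK6 had a log2 fold change of 0.19 ± 0.26 and CDK2 of -0.07 ± 0.08, against log2 ratios of 1.62 and -0.59 in LNCaP.

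Over the 22 libraries, with log2 CPM centred within each table, CDK2 went most closely with CDK4 (Pearson r = 0.79), CCNE2 (0.73) and CCNE1 (0.71), and CCND1 ran against CDK4 (-0.69). These points share tables, groups and the same TMM scaling, so the values only describe these libraries. CCND2, with a mean under 1 CPM in all tables, and CDK6, with a mean under 1 CPM in VCaP, were left out. Among 12721 genes with at least 1 CPM in all tables, those most like CDK4 were RANBP1 (r = 0.96), RFC5 (0.94) and MCM2 (0.93). For CDK2 they were KANK2 (0.94), WDR76 (0.94) and MYO19 (0.93), and for CCNE2 they included MAL2 (0.90) and RNASEH2B (0.90). For CCNE1 they were PCGF6 (0.88), TUBG1 (0.86) and DONSON (0.84), for CCND3 SECTM1 (0.84), HES4 (0.84) and AKT1 (0.84), and for CCND1 SCDP1 (0.87), SLC22A23 (0.86) and TBL2 (0.85).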

How the data were processed

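RNA-seq gene counts, deposited by the authors as raw counts per gene and column, were used for 3 prostate cancer lines. Per the submitters' processing notes, FastQC 0.11.9, STAR 2.7.2 and featureCounts 1.6.4 were used with hg19 (GRCh37). The strand setting of the counting is not given in the sources used here. Per the labels' protocols, libraries were TruSeq Stranded Total RNA (DHT, LNCaP) or TruSeq Stranded mRNA (VCaP, GSK2879552). Lanes of 1 library, with chi-square ratios of 0.983 to 1.01, were summed. Each table was fitted in R 4.3.3 with edgeR 4.0.16 (TMM, filterByExpr by group, quasi-likelihood F test, Benjamini-Hochberg over all genes tested, adjusted p under 0.05 called). Standard errors were derived from each log2 fold change and its F statistic. The tests were first run on simulated data. The DHT fit was additive in doxycycline and DHT. Single-library ratios used TMM and exact binomial 95% intervals, which cover counting error only, where both libraries together held 100 counts or more. Levels per kb used union exon length. Promoter sequence came from RefSeq, GRCh38.p14. Alternatives were RLE size factors, no filter on low counts, DESeq2 1.42.0, a replicate block, only the 2 groups compared, total counts, single lanes and leaving out each library. Named were the 8 members, RB1 and KDM1A, the member of each list with the smallest p in each direction where called, and the 3 genes most like each member. The members and lists were chosen with earlier results of these data known. Some results that these rules name are not reported here.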

Additional observations from a re-analysis of the deposited data

Results flagged for a closer look

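The response to RB1 siRNA in VCaP differed from that to 3 days of doxycycline in C4-2 cells for 2 members, by a test of the difference itself in edgeR. For CDK2 the log2 difference, VCaP minus C4-2, was -0.38 ± 0.10 (adjusted p = 0.00508), from 0.26 ± 0.08 in VCaP and 0.63 ± 0.08 in C4-2. For CCND1 it was -0.18 ± 0.05 (adjusted p = 0.00991), from -0.16 ± 0.03 and 0.02 ± 0.06. The fit pooled the spread of both lines, and the SE of the CCND1 difference is under that of its C4-2 value. Both p-values may therefore be too small. Over fits without 1 library the CDK2 difference ranged from -0.48 to -0.29 and that of CCND1 from -0.23 to -0.14, and both calls were lost without some single libraries. The siRNA, the induced hairpin, doxycycline, the lines and their media differ together, and their parts cannot be told apart.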

How the results depend on the processing

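Fitted values were counted as unchanged if they kept direction and call. Single-library ratios have no call and were counted as unchanged within their counting interval, even where the sign turned. Of 1161 values of single members under an alternative, 1029 were unchanged, 27 gained a call, 38 lost it, 17 moved beyond their counting interval and 50 fitted values changed sign. The cause was not tested for any of these. CDK2 with doxycycline without and with the inhibitor and at 30 days, CCND1 in VCaP, and CCND1, CCNE2, CDK2, CDK4 and CDK6 with DHT kept direction and call under all alternatives run. With DESeq2, members called were 1 in VCaP (2 in edgeR), 0 at 3 days (1) and 0 at 30 against 3 days (1, CDK6 having no adjusted p). Genes called with DESeq2 were 298 in VCaP (790), 31 at 3 days (81), 160 at 30 days (697), 19 at 30 against 3 days (56), 5084 with DHT (8149), 332 between C4-2 experiments (646) and 1124 between lines (1847). With no filter on low counts, 330 genes were called for the inhibitor without doxycycline (125), 406 with it (246), 39 in the interaction (3), 222 at 3 days (81) and 108 at 30 against 3 days (56), and 2 members between experiments (0). With only the 2 groups compared, 5 members and 3540 genes were called for doxycycline without the inhibitor (3 and 1444), 1 and 477 with it (2 and 1422), and 1173 genes for the inhibitor with doxycycline (246). The replicate numbers did not pair the samples (r of same-numbered deviations 0.0096 to 0.025 in VCaP and -0.33 to 0.14 in the GSK2879552 experiment). With the replicate block 908 and 903 genes were called for doxycycline without and with the inhibitor, and 0 members and 161 genes for the inhibitor with doxycycline, and CCND3 was not called for doxycycline without it (adjusted p = 0.0680). Over single-library ratios 1 member value was past 2-fold, against 2 with total counts and 2 with lane 2 only. Leaving out 1 library, members called were 1 to 3 and genes 515 to 826 in VCaP, 1 to 5 and 279 to 3200 for doxycycline without the inhibitor, 1 to 4 and 316 to 3201 with it, 0 to 1 and 41 to 1735 for the inhibitor without doxycycline, 0 to 1 and 78 to 947 with it, 0 and 0 to 195 in the interaction, 0 to 3 and 19 to 1002 at 3 days, 1 to 6 and 207 to 1965 at 30 days, 0 to 2 and 35 to 352 at 30 against 3 days, 5 to 6 and 6672 to 7595 with DHT, 0 to 2 and 321 to 942 between experiments, and 1 to 3 and 1370 to 2148 between lines. Signs of fitted values turned only where the value was not called. Of the single-library ratios (log2), CCND3 with DHT turned to -0.06 at 0 days and -0.010 at 30 days with total counts, CCNE1 with DHT at 3 days to 0.093 with lane 1, CDK6 with 3 days of doxycycline and DHT to -0.00085 with RLE and -0.18 with lane 1, and CCNE1 in LNCaP to -0.014 with lane 2. Fitted values over the left-out libraries follow. For doxycycline without the inhibitor, CCND1 ranged from -0.032 to 0.060. For the inhibitor without doxycycline, CCND1 ranged from -0.053 to 0.038, CCND3 ranged from -0.22 to 0.050, CCNE1 ranged from -0.15 to 0.21, CCNE2 ranged from -0.024 to 0.49, CDK2 ranged from -0.16 to 0.033, CDK4 ranged from -0.10 to 0.00025 and CDK6 ranged from -0.073 to 0.49. For the inhibitor with doxycycline, CCNE1 ranged from -0.022 to 0.073 and CCNE2 ranged from -0.19 to 0.17 (and had -0.0063 with RLE size factors, -0.010 with no filter on low counts, -0.0043 with DESeq2, -0.0066 with a fit of only the 2 groups compared). For the interaction, CCND3 ranged from -0.18 to 0.087, CCNE1 ranged from -0.18 to 0.17 (and had -0.0022 with RLE size factors, -0.013 with no filter on low counts, -0.0090 with DESeq2), CCNE2 ranged from -0.50 to 0.016, CDK2 ranged from -0.17 to 0.021 and CDK6 ranged from -0.049 to 0.51. For 3 days of doxycycline, CDK6 ranged from -0.084 to 0.17. For 30 against 3 days, CCND3 ranged from -0.017 to 0.044, CCNE1 ranged from -0.11 to 0.088 and CDK4 ranged from -0.052 to 0.14. For the difference between C4-2 experiments, CCNE1 ranged from -0.11 to 0.090 (and had 0.048 with no filter on low counts) and CDK4 ranged from -0.096 to 0.050 (and had 0.033 with no filter on low counts). For VCaP minus C4-2, CDK6 ranged from -0.81 to 0.0048.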
